A study of Mus musculus with 12 samples.

Results

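The 42 collagen chain genes measured in mouse cells on the way from epiblast to germ line are described here, out of 21728 genes with counts in at least 1 library. They are all genes in the deposited expression tables whose symbol has the form of Col, a type number, a and a chain number. That rule uses no measured value, although it was set with earlier results of these data known. Of the 42, 11 code for fibrillar chains, 7 for basement membrane chains and 24 for other collagens (beaded-filament, fibril-associated, network-forming, transmembrane and anchoring chains). All 42 are in the deposited PGCLC table and 35 in the EpiLC table, and 41 have counts in at least 1 of the 12 libraries. Col10a1 is the exception: it was unlisted in all 12 libraries and is entered here as 0.

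The libraries are bulk RNA-seq of mouse cells made in culture from embryonic stem cells of C57BL/6 background, all carrying the Blimp1-mVenus and Stella-ECFP reporter transgenes (BVSC). Blimp1 (Prdm1) and Stella (Dppa3) are switched on as germ cell fate is set, so the reporters mark nascent germ cells. EpiLCs (epiblast-like cells) were collected after 48 h of culture, either untreated or with 100 nM bisphenol A (BPA, a plasticizer with oestrogenic activity) in the medium for the last 24 h. PGCLCs (primordial germ cell-like cells) were Blimp1+Stella+ cells sorted at day 5 from aggregates grown from EpiLCs, untreated or from the BPA arm. Each of the 4 groups has 3 libraries. The labels do not say whether BPA stayed in the PGCLC medium, nor whether the replicates of a group were grown apart. The p-values therefore cover only how far these libraries scatter, which may be technical. Library names follow different patterns in the 2 stages and in the PGCLC arms, and an effect of handling could not be told apart from stage or arm.

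Collagens are triple helices of 3 chains that are hydroxylated and folded in the endoplasmic reticulum, secreted as procollagens, trimmed by proteinases and cross-linked outside the cell. Fibrillar types form the ropes of connective tissue. Type IV forms the sheet-like network of basement membranes, with which types XV and XVIII are associated. The epiblast rests on a basement membrane made largely by the adjoining endoderm, and migrating germ cells cross and contact such matrix.

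Total counts per library ran from 11785338 to 34309195, with 14323 to 17468 genes listed. Each count file lists only genes with at least 10 counts, so an unlisted gene may hold up to 9 counts, which is 0.262 to 0.764 CPM (counts scaled to a library total of 1e6). Levels are CPM of libraries scaled together with TMM, and values for replicates 1, 2 and 3 are given in that order. Untreated EpiLC replicate 3 and BPA arm PGCLC replicate 3 stood apart from their groups. The lane names of untreated EpiLC replicate 3 carry the replicate number 2, and the number in its title is used here. The line for reads without a unique alignment held 163810 to 212070 reads in the 3 BPA arm PGCLC libraries and 1448753 in BPA EpiLC replicate 2, and 0 in the other 8. Whether the libraries were processed alike was not tested. The germ cell markers were Prdm1, Dppa3, Prdm14, Tfap2c, Nanos3, Dnd1 and Kit. These 7 genes summed to 71.5 to 81.6 CPM in the EpiLC libraries and 843 to 1092 CPM in the PGCLC libraries. Prdm1 and Dppa3 are the genes of the reporters used for sorting, and no library is of unsorted aggregates. The purity of the sorted cells was therefore not tested.

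The start-site regions of the 3 collagen genes that were higher in the BPA arm of the PGCLCs are shown first. The regions of Col4a1 and Col4a2 overlap in part. Whether this bears on the levels of these genes was not tested. The sequences are RefSeq windows (GRCm38.p6) from 250 bases before to 50 bases from the start, 5′ to 3′ on the strand of the gene. Capitals mark the letters of a CCAAT box (CCAAT, or ATTGG on the other strand) and of a GC box (GGGCGG or CCGCCC), which are general promoter elements.
Col4a1, chr8:11312777-11313076, minus strand: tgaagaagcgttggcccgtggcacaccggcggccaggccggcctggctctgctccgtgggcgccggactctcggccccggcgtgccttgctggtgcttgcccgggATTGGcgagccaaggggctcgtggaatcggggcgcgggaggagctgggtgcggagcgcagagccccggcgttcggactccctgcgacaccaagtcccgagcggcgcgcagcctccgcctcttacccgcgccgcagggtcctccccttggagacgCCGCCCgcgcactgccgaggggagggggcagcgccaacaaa
Col4a2, chr8:11312555-11312854, plus strand: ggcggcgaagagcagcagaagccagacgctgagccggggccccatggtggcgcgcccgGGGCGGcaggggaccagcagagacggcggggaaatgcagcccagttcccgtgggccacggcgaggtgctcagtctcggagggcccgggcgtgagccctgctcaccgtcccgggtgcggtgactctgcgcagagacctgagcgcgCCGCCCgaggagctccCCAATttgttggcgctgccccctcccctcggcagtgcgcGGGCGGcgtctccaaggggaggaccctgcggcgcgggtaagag
Col23a1, chr11:51289670-51289969, plus strand: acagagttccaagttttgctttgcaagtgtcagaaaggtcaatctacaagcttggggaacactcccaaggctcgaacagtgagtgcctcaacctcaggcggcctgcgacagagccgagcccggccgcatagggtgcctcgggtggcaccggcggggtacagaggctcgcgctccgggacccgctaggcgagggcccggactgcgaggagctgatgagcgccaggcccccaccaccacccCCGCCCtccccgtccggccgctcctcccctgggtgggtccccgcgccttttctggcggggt

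Col4a1 and Col4a2 lie head to head on chromosome 8, their annotated starts 21 bases apart and their gene bodies overlapping by 22 bases. The pair of windows shares 78 bases. The Col4a1 window holds 1 CCAAT box and 1 GC box, the Col4a2 window 1 CCAAT box and 3 GC boxes, and the Col23a1 window 1 GC box and no CCAAT box. RefSeq windows were matched for 34 of the 42 genes (37 windows). A GC box was in 23 of the 37 (62.2%) against 35.7% of all 32851 windows, and a CCAAT box in 13 of 37 (35.1%) against 37.4%. The GC box of Col4a1 and 1 of those of Col4a2 are the same site in the shared bases, counted in each window. The 37 windows had a median GC content of 60%, against 52.7% over all windows. The part of GC content in the GC box share was not tested. The palindromic letters of a full oestrogen response element, searched on both strands, were in none of the 37 windows and in 23 (0.0700%) of all windows. These are matches of letters only. Col4a5 and Col4a6 form another head-to-head pair on chromosome X, with starts 1309 bases apart.

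Basement membrane chains made up most of the collagen mRNA in every library, 80.2% to 89.8% of the summed collagen CPM. The sum over all collagens was 837 ± 39.9 CPM (SD, n = 3) in untreated EpiLCs, 859 ± 40.4 CPM in BPA EpiLCs, 1399 ± 135 CPM in untreated PGCLCs and 2120 ± 349 CPM in the BPA arm. Fibrillar chains summed to 46.2 ± 6.69, 49.4 ± 5.63, 138 ± 24.5 and 178 ± 55.4 CPM in the same order, and the other collagens to 95.0 ± 3.53, 94.6 ± 5.81, 77.6 ± 5.95 and 101 ± 3.64 CPM. Of the 42 genes, 25 were listed in all 3 untreated EpiLC libraries and 31 in all 3 untreated PGCLC libraries. Only Col18a1 had a mean of 100 CPM or more in EpiLCs, whereas Col18a1, Col4a1 and Col4a2 did in both PGCLC groups.

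**Figure D1:**
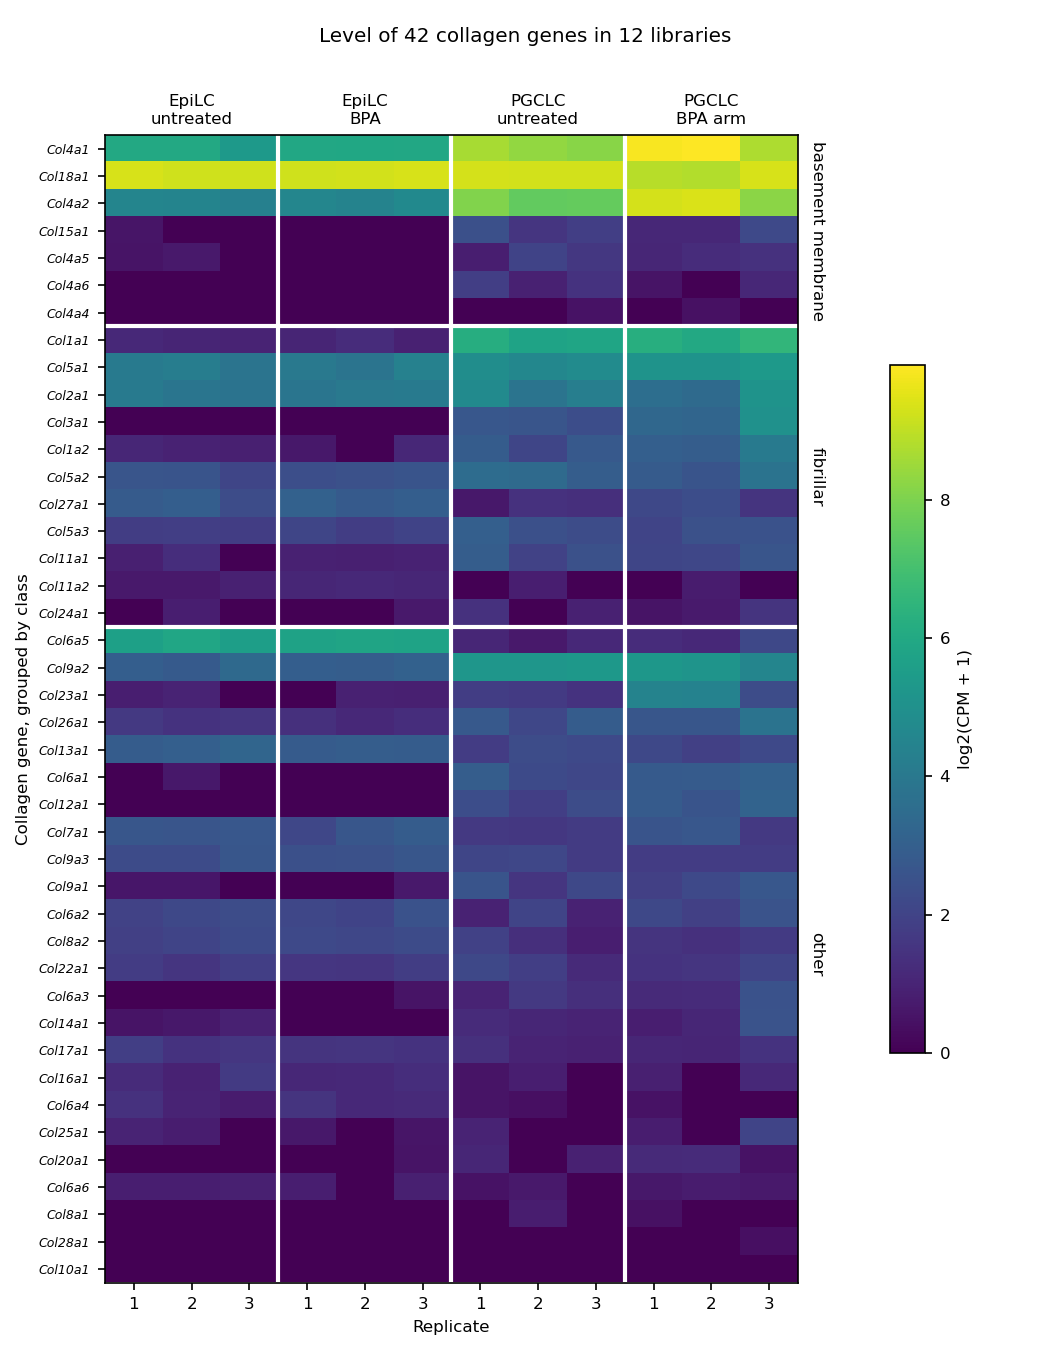
Level of each of the 42 collagen genes, as log2(CPM + 1), in each of the 12 libraries, with rows grouped by class and columns by group and replicate. Col18a1 is high in all columns, Col4a1 and Col4a2 are highest in the PGCLC columns, Col6a5 is high in the EpiLC columns alone, and an unlisted gene is drawn at 0.

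Per kilobase of the principal transcript, Col18a1 stood first in EpiLCs at 129 ± 5.37 CPM per kb (untreated, n = 3), followed by Col4a1 at 8.50 ± 1.98, Col6a5 at 5.56 ± 0.604 and Col4a2 at 3.24 ± 0.216. Col18a1 codes for the type XVIII chain, a basement membrane proteoglycan whose C-terminal fragment is endostatin. In untreated PGCLCs the order was Col18a1 at 130 ± 1.54 CPM per kb, Col4a1 at 51.1 ± 8.75, Col4a2 at 33.5 ± 6.72, Col9a2 at 12.7 ± 0.431 and Col1a1 at 10.3 ± 1.71. Col18a1 alone was 73.9% of collagen CPM in untreated EpiLCs and 44.5% in untreated PGCLCs. In the BPA arm of the PGCLCs, Col4a1 was at 118 ± 46.7 CPM per kb and Col18a1 at 109 ± 22.5. Their order varied by library: the ratio of Col18a1 to Col4a1 per kb was 0.71, 0.63 and 2.10.

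Untreated PGCLCs and untreated EpiLCs differed in 22 of the 38 collagen genes that could be tested (18 higher and 4 lower in PGCLCs, edgeR quasi-likelihood test, Benjamini-Hochberg adjusted p below 0.05 over all 17608 genes). That is 57.9%, against 55.6% of all genes tested, so the share called was near the background. By direction, 30.4% of all genes were higher and 25.2% lower. The median log2 difference of the 38 was 1.01 (0.93 with genes unlisted in a whole group set to their bound), against 0.07 over all genes. Of the 38, 10 passed the low-count filter through the PGCLC libraries alone and 1 through the EpiLC libraries alone, which fixes their direction. Among the 27 that passed in each stage by itself, 11 were higher and 4 lower. The same contrast in the BPA arm called 22 of 38 (18 higher, 4 lower, against a background of 57.5%, or 32.5% higher and 25% lower), and 18 genes were called in both arms, 15 of them higher and 3 lower.

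Type IV chains led the change in amount. Col4a1, which pairs with Col4a2 in the most common basement membrane heterotrimer, was at 64.1, 63.5 and 41.1 CPM in untreated EpiLCs and 401, 325 and 287 CPM in untreated PGCLCs. Its log2 difference was 2.58 ± 0.28 (SE, adjusted p = 1.30e-05, edgeR). Col4a2 went from 22.1, 21.3 and 19.4 CPM to 266, 187 and 195 CPM, a log2 difference of 3.37 ± 0.27 (adjusted p = 1.08e-06). For both genes every PGCLC library stood above every EpiLC library. Col18a1 differed from them: it was at 648, 605 and 602 CPM in untreated EpiLCs and at 630, 624 and 615 CPM in untreated PGCLCs, overlapping ranges with a log2 difference of 0.01 ± 0.12 (adjusted p = 0.955).

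The minor basement membrane chains were at a few CPM at most. Col15a1, the type XV relative of Col18a1, was at 0.493 CPM in 1 untreated EpiLC library and unlisted in the other 2, and at 4.46, 1.87 and 2.61 CPM in untreated PGCLCs (log2 difference 4.05 ± 1.18, adjusted p = 0.0148). Col4a6 was unlisted in all 6 EpiLC libraries and at 2.65, 0.871 and 1.75 CPM in untreated PGCLCs, at least 3.65-fold higher than the 9 counts per library that an unlisted gene may hold. Its neighbour Col4a5 was at 0.448 and 0.594 CPM and unlisted in untreated EpiLC replicate 3, against 0.765, 2.99 and 2.07 CPM in untreated PGCLCs, and did not pass there (adjusted p = 0.0654). Col4a5 did pass in the BPA arm, from unlisted in all 3 EpiLC libraries to 1.07, 1.4 and 1.67 CPM, at least 2.51-fold higher. Col4a4 was listed in 2 PGCLC libraries and was not tested.

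**Figure D2:**
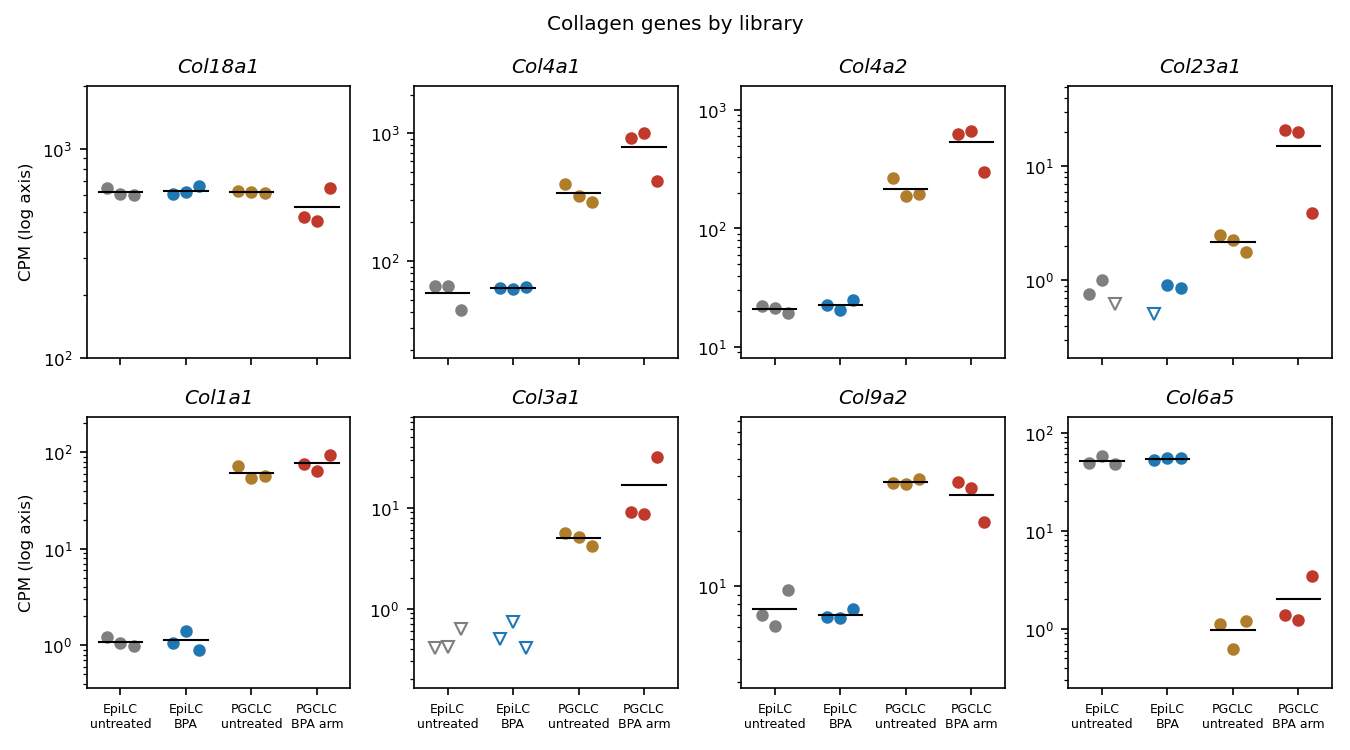
CPM of 8 collagen genes in each library on a log axis, with filled points for libraries, black lines for means of groups listed in all 3 libraries and open triangles at the 9-count limit for unlisted genes. Col18a1 overlaps between the stages, at 602 to 661 CPM in EpiLCs and 452 to 648 CPM in PGCLCs, while Col4a1, Col4a2, Col1a1, Col3a1 and Col9a2 are higher and Col6a5 is lower in every PGCLC library than in every EpiLC library.

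Among fibrillar chains 7 of 11 were higher and 1 lower in untreated PGCLCs. Col1a1, the major chain of type I collagen of bone, skin and mesenchyme, was at 1.21, 1.05 and 0.975 CPM in untreated EpiLCs (27, 23 and 14 counts) and at 72.6, 53.8 and 56.5 CPM in untreated PGCLCs. That is a log2 difference of 5.80 ± 0.22 (adjusted p = 2.61e-09). Its partner Col1a2 was at 1.08, 0.915 and 0.836 CPM against 6.47, 3.27 and 5.83 CPM (2.45 ± 0.60, adjusted p = 0.00452, lost with limma voom). Col3a1, whose type III homotrimer accompanies type I in soft tissue, was unlisted in all 6 EpiLC libraries and at 5.58, 5.13 and 4.17 CPM in untreated PGCLCs, at least 10.3-fold higher. The type I and type III genes were thus near or under the listing limit in EpiLCs and above it in every PGCLC library.

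Type V and XI chains regulate the diameter of type I and type II fibrils. The 3 type V chains and Col11a1 were called higher as well, the type V chains by log2 differences of 0.76 to 1.02. Col5a1 was at 16.0, 17.8 and 13.2 CPM in untreated EpiLCs and 28.8, 23.6 and 27.2 CPM in untreated PGCLCs (log2 difference 0.76 ± 0.17, adjusted p = 0.00249). Col5a2 was at 5.16, 5.03 and 3.20 CPM against 10.4, 9.74 and 6.72 CPM (0.99 ± 0.34, adjusted p = 0.0248), a call that was lost with limma voom and without untreated EpiLC replicate 3, untreated PGCLC replicate 1 or untreated PGCLC replicate 2. Col5a3 was at 2.47, 2.56 and 2.51 CPM against 6.98, 4.39 and 3.95 CPM (1.02 ± 0.27, adjusted p = 0.00705). Col11a1 was at 0.852 and 1.46 CPM and unlisted in untreated EpiLC replicate 3, against 6.57, 2.86 and 4.49 CPM (2.52 ± 0.69, adjusted p = 0.00867, lost in a fit of the 6 untreated libraries alone). Col2a1, the cartilage collagen, was at 15.7, 13.6 and 13.0 CPM against 25.9, 13.4 and 18.3 CPM, with overlapping groups (adjusted p = 0.367). Col27a1, a minor fibrillar chain of cartilage, was the 1 that fell, from 6.19, 6.95 and 3.97 CPM to 0.542, 1.71 and 1.53 CPM, a log2 difference of -2.18 ± 0.42 (adjusted p = 8.9e-04).

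The partner chains of a heterotrimer did not keep 1 ratio. Per kilobase, Col4a1 stood to Col4a2 at 2.83, 2.91 and 2.07 in untreated EpiLCs and at 1.47, 1.69 and 1.44 in untreated PGCLCs. With the BPA libraries (2.68, 2.85 and 2.43 in EpiLCs, 1.41, 1.45 and 1.39 in PGCLCs), each of the 6 EpiLC ratios exceeded each of the 6 PGCLC ratios. Type I collagen is usually assembled from chains of Col1a1 and Col1a2 with Col1a1 in excess. The Col1a1 to Col1a2 ratio per kilobase was 1.04 ± 0.02 in untreated EpiLCs, at 12 to 27 counts a gene, and 11.2 ± 3.22 (n = 3) in untreated PGCLCs. In the BPA arm of the PGCLCs it was 9.44, 8.68 and 5.40, overlapping the untreated values of 10.1, 14.9 and 8.74.

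**Figure D3:**
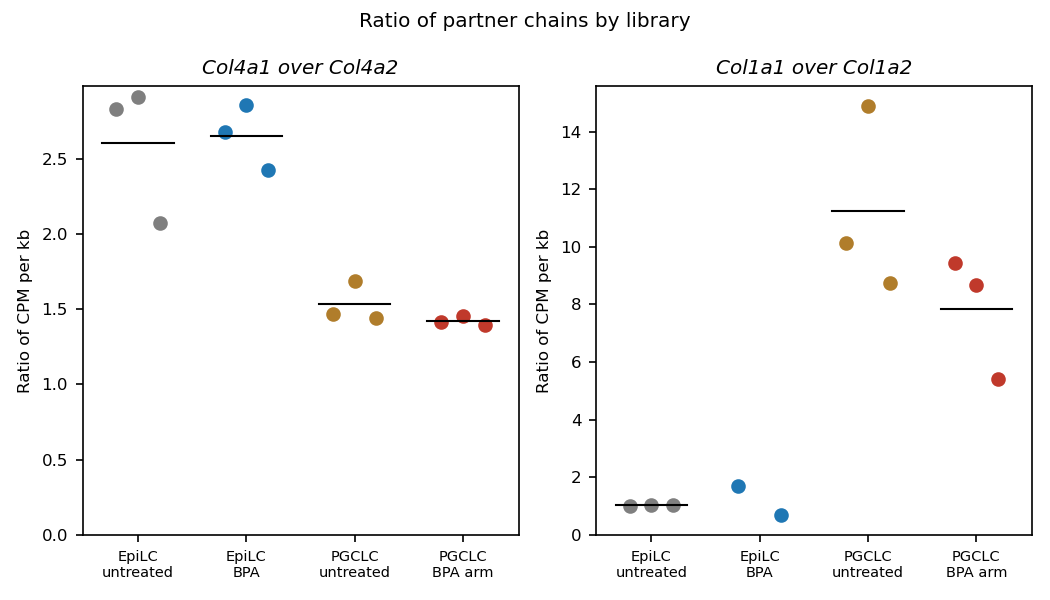
Ratio of Col4a1 to Col4a2 and of Col1a1 to Col1a2, each as CPM per kilobase of principal transcript, with 1 point per library and a line at the mean of groups with 3 ratios. The Col4a1 to Col4a2 ratio lies between 2.07 and 2.91 in EpiLCs and between 1.39 and 1.69 in PGCLCs, and BPA EpiLC replicate 2 has no Col1a1 to Col1a2 ratio because Col1a2 was unlisted.

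Of the other collagens, 7 of 21 tested were higher and 3 lower in untreated PGCLCs. Col6a5, a type VI chain of the alternative alpha3-like group, fell most: it was at 49.4, 58.0 and 47.5 CPM in untreated EpiLCs and 1.12, 0.622 and 1.21 CPM in untreated PGCLCs, a log2 difference of -5.71 ± 0.36 (adjusted p = 1.39e-07). Of the classical type VI chains, Col6a1 and Col6a3 went the other way and Col6a2 did not pass. Col6a1 was at 0.549 CPM in 1 untreated EpiLC library and unlisted in 2, against 6.63, 3.67 and 3.31 CPM (4.48 ± 0.85, adjusted p = 0.00137). Col6a3 was unlisted in all 3 against 0.988, 2.15 and 1.56 CPM, at least 3.26-fold higher. Type VI collagen forms beaded filaments next to basement membranes. Col6a2, the obligate partner of Col6a1 on chromosome 10, was at 2.87, 3.43 and 4.04 CPM against 0.956, 3.14 and 0.924 CPM (-1.03 ± 0.46, adjusted p = 0.0725), and was called lower with limma voom and without untreated PGCLC replicate 2.

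Of the fibril-associated collagens, which coat fibrils and link them to other matrix, Col9a1, Col9a2, Col12a1 and Col20a1 were called higher. Col9a2 was at 6.95, 6.08 and 9.54 CPM in untreated EpiLCs and 36.8, 36.3 and 38.7 CPM in untreated PGCLCs (log2 difference 2.32 ± 0.21, adjusted p = 2.32e-06). Its partner chains of type IX collagen did not match it. Col9a1 was at 0.538 and 0.503 CPM with replicate 3 unlisted, against 5.0, 1.93 and 3.50 CPM (3.23 ± 0.98, adjusted p = 0.0146). Col9a3 was at 3.86, 3.89 and 5.29 CPM against 3.25, 3.33 and 2.29 CPM (-0.55 ± 0.23, adjusted p = 0.0628), and in the BPA arm it fell from 4.43, 4.53 and 5.27 CPM to 2.37, 2.39 and 2.40 CPM (-0.99 ± 0.23, adjusted p = 0.00338). The exons of Col9a3 overlap those of Tcfl5 on the opposite strand over 234 bases. Col12a1, a fibril-associated chain of stretched tissue, was unlisted in all 6 EpiLC libraries and at 4.08, 2.64 and 3.95 CPM in untreated PGCLCs, at least 7.40-fold higher. Col14a1 was at 0.448, 0.549 and 0.905 CPM against 1.34, 1.12 and 0.987 CPM and did not pass in the untreated arm (adjusted p = 0.372). With BPA it was unlisted in all 3 EpiLC libraries and at 0.780, 1.10 and 4.89 CPM in PGCLCs, at least 4.10-fold higher. Col20a1 was unlisted in untreated EpiLCs and at 1.08 and 0.860 CPM in 2 untreated PGCLC libraries; its call (adjusted p = 0.0390) was lost in 12 of 21 alternatives.

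The transmembrane and anchoring chains fell or did not pass. Col13a1, a transmembrane collagen of cell adhesion sites, was at 6.50, 7.13 and 8.42 CPM in untreated EpiLCs and 2.39, 3.98 and 3.63 CPM in untreated PGCLCs (log2 difference -1.14 ± 0.22, adjusted p = 0.00111). Col7a1, which forms the anchoring fibrils under epithelia, was at 5.29, 5.12 and 5.57 CPM against 2.17, 2.08 and 2.29 CPM (-1.28 ± 0.35, adjusted p = 0.00769). Col23a1, another transmembrane collagen, was at 0.762 and 1.01 CPM with replicate 3 unlisted, against 2.49, 2.24 and 1.78 CPM, and did not pass (adjusted p = 0.105). Col26a1, a short collagen found in gonads, was at 2.15, 1.78 and 1.88 CPM against 5.93, 3.30 and 6.37 CPM (1.42 ± 0.38, adjusted p = 0.00727, lost with limma voom). The remaining 14 members had group means under 5 CPM and no call: Col4a4, Col6a2, Col6a4, Col6a6, Col8a1, Col8a2, Col10a1, Col11a2, Col16a1, Col17a1, Col22a1, Col24a1, Col25a1 and Col28a1. The highest group mean among them was 3.71 CPM, for Col6a2.

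In the BPA arm the stage contrast also called Col23a1, from 0.905 and 0.856 CPM with BPA EpiLC replicate 1 unlisted to 21.0, 20.2 and 3.93 CPM (4.69 ± 0.92, adjusted p = 9.6e-04, lost with limma voom). It did not call Col5a2, Col5a3, Col7a1 or Col20a1. Whether the stage difference of these genes differs between the arms is the interaction tested below. The calls of Col4a6 (11 of 21 alternatives), Col27a1 (6 of 22), Col11a1 (5 of 22) and Col6a3 (4 of 22) in the BPA arm were each lost when BPA arm PGCLC replicate 3 was left out, among others.

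Marker genes of other cell types moved with stage as well. The 12 endoderm markers summed to 12.6 to 19.5 CPM in the 6 EpiLC libraries (Sox17, Gata6, Afp, Ttr and Hnf4a unlisted in all of them) and to 782 to 1220 CPM in untreated PGCLCs, and all 12 were called higher there. The 7 parietal endoderm markers summed to 259 to 302 CPM in EpiLCs and 701 to 862 CPM in untreated PGCLCs (5 of 7 higher). The 10 mesenchyme and fibroblast markers summed to 12.2 to 14.2 CPM in EpiLCs (Twist2, Prrx1, Lum and Postn unlisted) and 23.4 to 38.0 CPM in untreated PGCLCs (7 of 10 higher, 1 lower). The 6 endothelium markers summed to 25.8 to 29.6 and 222 to 248 CPM (5 of 6 higher). Most of that sum was Pecam1, at 18.8 to 21.3 CPM in EpiLCs and 167 to 187 CPM in untreated PGCLCs. The 6 epiblast markers summed to 1242 to 1378 and 713 to 767 CPM (1 of 6 higher, 4 lower). In the EpiLC libraries by themselves, 4 of the 12 endoderm and 5 of the 7 parietal endoderm markers passed the low-count filter. For mesenchyme and fibroblast it was 5 of 10, and for endothelium 4 of 6. A marker that passed through 1 stage alone had its direction fixed, as for the collagens above. The part of these cell types in the collagen differences was not tested. In bulk RNA a larger number of cells of a type and more RNA per cell cannot be told apart.

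BPA exposure of EpiLCs changed no collagen gene past the threshold. None of 28 tested was called by edgeR, DESeq2, limma voom or limma-trend, and none had an unadjusted p below 0.05, against a background of 0% of 15252 genes called by edgeR (DESeq2 called 16 genes). The smallest adjusted p of a collagen gene was 0.943. Log2 differences ran from -0.73 to 0.77, with a median of 0.05 against 0.00 over all genes. Col4a1 was at 62.1, 60.5 and 62.6 CPM in BPA EpiLCs, a log2 difference of 0.14 ± 0.19. Col4a2 was at 22.6, 20.7 and 25.1 CPM (0.14 ± 0.13), Col18a1 at 611, 620 and 661 CPM (0.04 ± 0.10) and Col6a5 at 52.0, 55.3 and 54.5 CPM (0.08 ± 0.12). For each of these 4 genes the exposed and untreated ranges overlapped.

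The fibrillar genes gave these levels in the exposed EpiLCs. Col1a1 was at 1.07, 1.4 and 0.901 CPM with BPA, and Col1a2 at 0.561 and 1.17 CPM with replicate 2 unlisted. Col2a1 was at 13.8, 15.1 and 16.3 CPM, Col5a1 at 15.3, 13.2 and 19.8 CPM, Col5a2 at 4.21, 4.53 and 5.0 CPM and Col5a3 at 3.20, 2.55 and 3.06 CPM. Col27a1 was at 7.47, 6.01 and 6.85 CPM and Col11a1 at 0.898, 0.823 and 0.946 CPM. For each of these 8 genes the exposed and untreated ranges overlapped, although 2 of the 3 exposed libraries were above the untreated range of Col5a3. Of the 28 tested genes, Col11a2 and Col26a1 had groups that did not overlap. How many of all genes had such groups was not counted, so no effect is read from this. Col11a2, a type XI chain, was at 0.583, 0.594 and 0.905 CPM untreated and 1.12, 1.23 and 1.13 CPM with BPA (0.77 ± 0.46, adjusted p = 0.943). Col26a1 was at 2.15, 1.78 and 1.88 CPM against 1.63, 1.23 and 1.49 CPM (-0.40 ± 0.25, adjusted p = 0.943). Type I and type III chains thus stayed near or under the listing limit in both EpiLC groups. Of the other classes, Col9a2 was at 6.79, 6.75 and 7.52 CPM, Col13a1 at 6.34, 6.66 and 6.44 CPM and Col7a1 at 3.31, 5.35 and 6.49 CPM. Col6a3, Col9a1 and Col20a1 were listed in BPA EpiLC replicate 3 alone, at 0.451, 0.586 and 0.451 CPM, and Col6a1 and Col15a1 in none of the 3.

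In PGCLCs, 3 of 37 tested collagen genes were higher in the BPA arm and none lower (edgeR, adjusted p below 0.05 over 16753 genes). That is 8.11% of the members tested, against a background of 13.9% of all genes called, 8.13% higher and 5.72% lower. The share called higher was thus near that of all genes, and neither share was tested against the background. The median log2 difference of the 37 was 0.45, against 0.01 over all genes. The 3 were Col4a1, Col4a2 and Col23a1. The untreated PGCLC libraries in this contrast are the same ones as in the untreated stage contrast.

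Col4a1 was at 401, 325 and 287 CPM in untreated PGCLCs and at 918, 994 and 426 CPM in the BPA arm, a log2 difference of 1.22 ± 0.29 (adjusted p = 0.0305). Col4a2 was at 266, 187 and 195 CPM against 633, 668 and 298 CPM (1.32 ± 0.29, adjusted p = 0.0231). Col23a1 was at 2.49, 2.24 and 1.78 CPM against 21.0, 20.2 and 3.93 CPM (2.80 ± 0.58, adjusted p = 0.0192). In each of the 3 genes BPA arm replicates 1 and 2 were far above the untreated libraries, and replicate 3 was the lowest of its group but still above the highest untreated library. All 3 calls were lost when any 1 of the 3 untreated libraries, BPA arm replicate 1 or BPA arm replicate 2 was left out, with 0 or 1 collagen gene called in those fits of 5 libraries. Over all genes those fits called 668 to 1243, against 2321 in the main fit. Across all alternatives the log2 difference stayed between 1.00 and 1.52 for Col4a1, 1.12 and 1.61 for Col4a2, and 2.01 and 3.26 for Col23a1. Without BPA arm replicate 3, 6 collagen genes were called: these 3, Col3a1 and Col7a1 higher, and Col18a1 lower. That fit called 3206 of all 17417 genes tested, and the collagen share was not tested against this.

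As a sum, endoderm markers were higher in the same libraries. The 12 genes summed to 1220, 884 and 782 CPM in untreated PGCLCs and to 6589, 6616 and 2999 CPM in the BPA arm, where 7 of the 12 were called higher and none lower (Ttr 5.40 ± 0.26, Afp 6.01 ± 0.35, Apoa1 5.35 ± 0.39 and Hnf4a 3.35 ± 0.36 on the log2 scale, all transcripts of visceral endoderm and liver). The sum, Col4a1, Col4a2 and Col23a1 were each lowest in replicate 3 within the BPA arm. Not every marker followed the sum in that library, where Afp alone was at 1365 CPM. Sox17 (2.35 CPM), Sox7 (2.29 CPM) and Cubn (463 CPM) were below every untreated PGCLC library there. Gata4 (44.2 CPM) and Gata6 (17.1 CPM) were within the untreated range. Parietal endoderm markers summed to 862, 718 and 701 CPM against 1073, 1073 and 632 CPM, with 1 of 7 (Pth1r) higher. Germ cell markers summed to 946, 1018 and 1092 CPM against 883, 843 and 905 CPM, with 3 of 7 lower (Prdm14, Tfap2c and Prdm1). The part of endoderm cells in the higher Col4a1, Col4a2 and Col23a1 was not tested.

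None of the 10 fibrillar genes tested passed between the PGCLC arms, and 6 of the 10 had a positive log2 difference (median 0.27). Col5a1 came closest, at 28.8, 23.6 and 27.2 CPM in untreated PGCLCs and 33.3, 33.4 and 41.0 CPM in the BPA arm (0.45 ± 0.13, adjusted p = 0.0520). It passed in 6 of 16 alternatives. Col3a1 was at 5.58, 5.13 and 4.17 CPM against 9.16, 8.61 and 32.2 CPM (1.75 ± 0.50, adjusted p = 0.0535), and passed in 5 of 16. Col1a1 was at 72.6, 53.8 and 56.5 CPM against 75.2, 64.0 and 93.1 CPM (0.36 ± 0.16, adjusted p = 0.185). Col1a2 was at 6.47, 3.27 and 5.83 CPM against 7.18, 6.65 and 15.6 CPM (0.93 ± 0.39, adjusted p = 0.156).

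BPA arm replicate 3 was the highest of the 6 PGCLC libraries for Col3a1, Col1a1, Col1a2, Col5a1, Col2a1 and Col5a2. Col2a1 was at 25.9, 13.4 and 18.3 CPM against 11.0, 9.84 and 33.7 CPM, and Col5a2 at 10.4, 9.74 and 6.72 CPM against 6.27, 5.09 and 13.0 CPM. Neither passed (adjusted p = 0.951 and 0.870). The 10 mesenchyme and fibroblast markers summed to 32.2, 38.0 and 23.4 CPM in untreated PGCLCs and 31.9, 29.8 and 51.7 CPM in the BPA arm, with none of 9 tested called and Tagln unlisted in all PGCLC libraries. Endothelium markers summed to 222, 248 and 243 CPM against 205, 204 and 247 CPM, with 2 of 6 lower, and epiblast markers to 733, 713 and 767 CPM against 615, 610 and 574 CPM, with 1 of 6 lower. The part of such cells in the levels of replicate 3 was not tested.

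**Figure D4:**
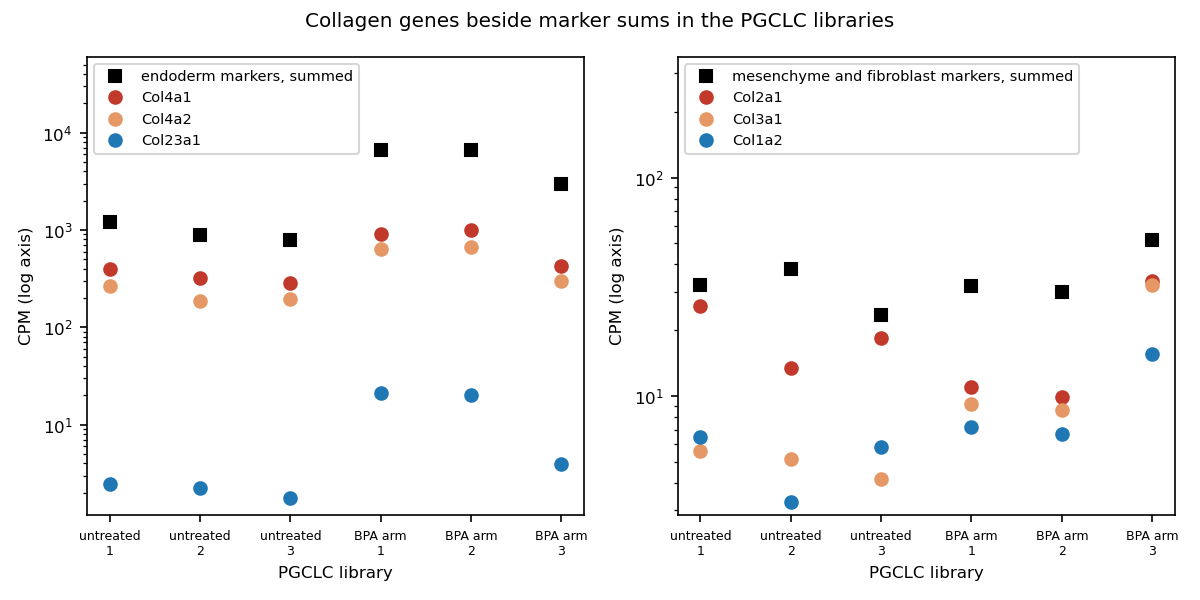
CPM on a log axis in the 6 PGCLC libraries of Col4a1, Col4a2 and Col23a1 beside the summed endoderm markers (left), and of Col2a1, Col3a1 and Col1a2 beside the summed mesenchyme and fibroblast markers (right), 1 point per library. On the left BPA arm replicate 3 is the lowest of its arm for all 4 series (endoderm sum 2999 CPM), and on the right it is the highest of the 6 libraries for all 4 series (mesenchyme sum 51.7 CPM).

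Of the remaining genes with at least 5 CPM in a PGCLC group, Col18a1 was at 630, 624 and 615 CPM in untreated PGCLCs and 473, 452 and 648 CPM in the BPA arm (-0.24 ± 0.12, adjusted p = 0.246). Col9a2 was at 36.8, 36.3 and 38.7 CPM against 37.3, 34.6 and 22.4 CPM (-0.23 ± 0.18, adjusted p = 0.488). Col12a1 was at 4.08, 2.64 and 3.95 CPM against 6.17, 5.02 and 8.12 CPM (0.87 ± 0.27, adjusted p = 0.0729). Col6a1 was at 6.63, 3.67 and 3.31 CPM against 6.08, 6.32 and 7.49 CPM (adjusted p = 0.267), and Col26a1 at 5.93, 3.30 and 6.37 CPM against 5.30, 5.32 and 12.8 CPM (adjusted p = 0.402). Col5a3 was at 6.98, 4.39 and 3.95 CPM against 3.12, 4.49 and 4.75 CPM (adjusted p = 0.605).

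Lower members of the PGCLC contrast showed wide intervals. Col7a1 was at 2.17, 2.08 and 2.29 CPM against 4.94, 5.59 and 2.12 CPM (0.96 ± 0.39, adjusted p = 0.145). Col27a1 was at 0.542, 1.71 and 1.53 CPM against 3.44, 4.09 and 1.84 CPM (1.32 ± 0.53, adjusted p = 0.144). Col6a5 was at 1.12, 0.622 and 1.21 CPM against 1.4, 1.23 and 3.45 CPM (adjusted p = 0.294). Col15a1, at 1.14, 1.13 and 3.59 CPM in the BPA arm, Col6a3, at 1.27, 1.36 and 4.67 CPM, and Col14a1, at 0.780, 1.10 and 4.89 CPM, were again highest of their arm in replicate 3, and none passed. Col4a6 was at 0.455 and 1.16 CPM with BPA arm replicate 2 unlisted (adjusted p = 0.433). Col9a1 was at 2.73, 3.56 and 5.43 CPM in the BPA arm, Col11a1 at 3.25, 3.36 and 5.20 CPM, Col13a1 at 3.51, 2.69 and 3.62 CPM and Col20a1 at 1.27, 1.33 and 0.396 CPM, with adjusted p of 0.762 to 0.984. Col4a5 and Col9a3, whose values are given above, did not pass (adjusted p = 0.665 and 0.609).

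**Figure D5:**
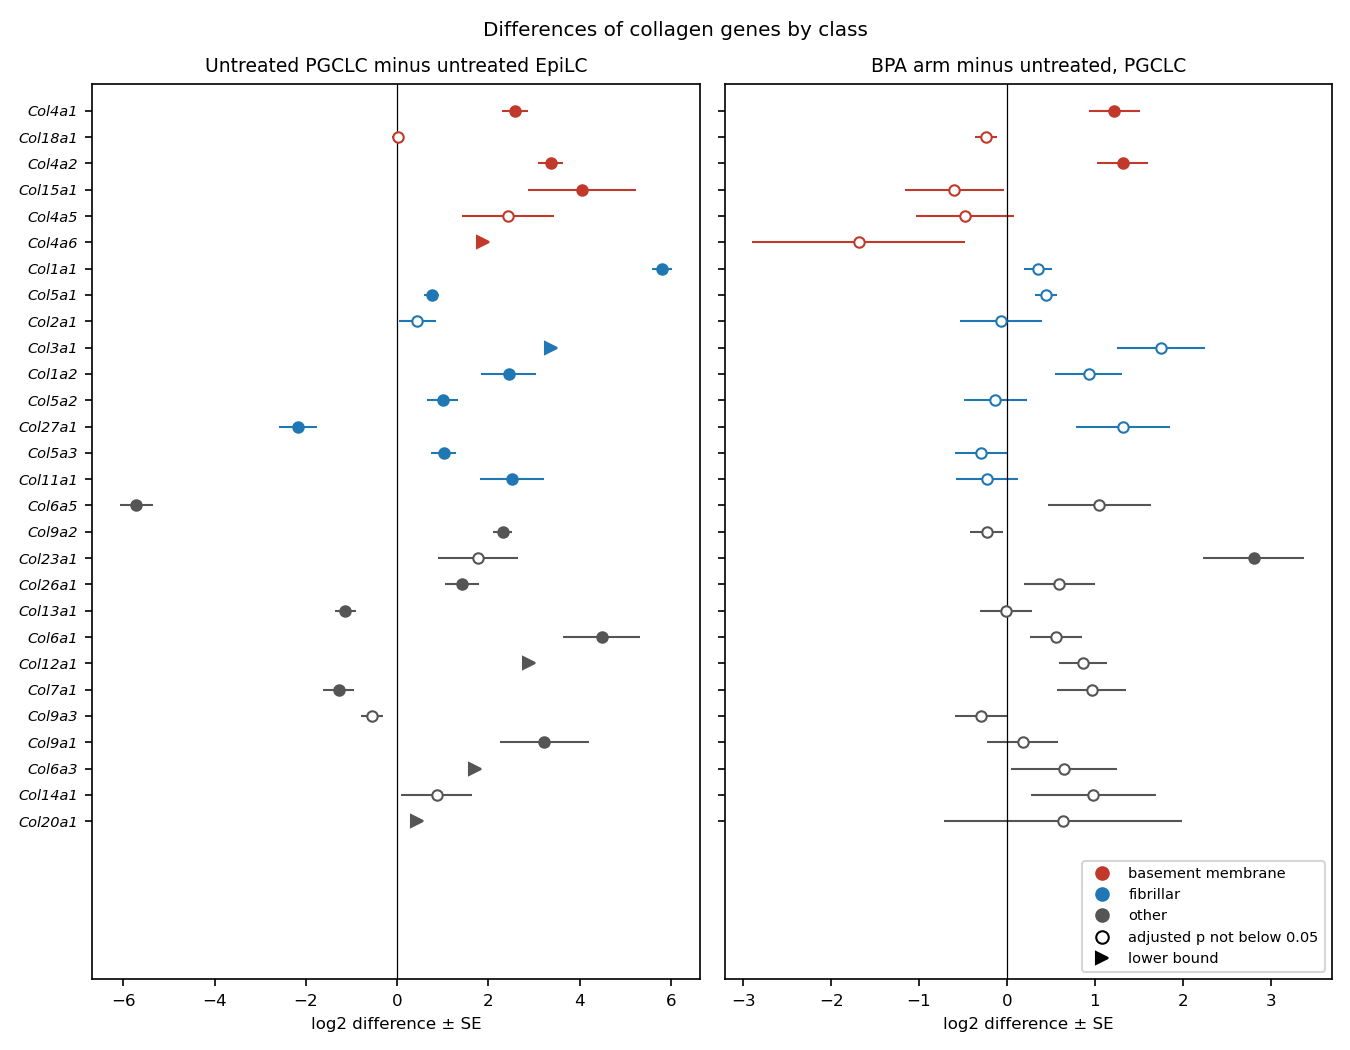
Log2 difference with its standard error for the 28 collagen genes with a group mean of at least 5 CPM or a call, untreated PGCLCs minus untreated EpiLCs on the left and BPA arm minus untreated PGCLCs on the right, coloured by class. Filled symbols have an adjusted p below 0.05 (Col4a1, Col4a2 and Col23a1 on the right), open symbols do not, and triangles are lower bounds for genes unlisted in all 3 untreated EpiLC libraries.

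The difference between the BPA effects in the 2 stages was tested directly. None of 38 collagen genes passed (edgeR, 12 libraries, background 1.32% of 17608 genes called, 1.01% higher and 0.312% lower), while 6 had an unadjusted p below 0.05, DESeq2 called 2 and limma voom none. The smallest adjusted p was 0.0515, for Col14a1. The count of collagen genes rose to 2 without untreated EpiLC replicate 3 and to 4 without BPA arm PGCLC replicate 3. Over all 17608 genes the main fit called 232 and DESeq2 897. It was 767 of 18885 genes without untreated EpiLC replicate 3 and 744 of 17871 without BPA arm PGCLC replicate 3. Without both of these libraries, an alternative added after the data had been seen, 7 passed: Col4a1, Col4a2, Col4a5, Col7a1, Col14a1 and Col23a1 with a positive interaction term (the PGCLC difference minus the EpiLC difference), and Col18a1 with a negative one. That fit called 2088 of all 18157 genes tested, and the collagen share was not tested against this. Col4a5 and Col14a1 were unlisted in all 3 BPA EpiLC libraries, so their terms depend on the count given to unlisted genes. For Col4a5, which was not higher in the BPA arm of the PGCLCs (-0.48 ± 0.56), the term ran from -0.39 to 6.33 across the alternatives.

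Genes that fold and modify collagen chains differed in both directions. Beside the counts of this list and of those that follow, 55.6% of all genes were called with stage in the untreated arm. It was 57.5% in the BPA arm and 13.9% between the PGCLC arms. No share of a list was tested against these. Of 23 tested, 10 were higher and 5 lower in untreated PGCLCs than in untreated EpiLCs, with a median log2 difference of 0.33 against 0.07 over all genes. P4ha1, a catalytic subunit of the prolyl 4-hydroxylase that stabilises the helix, differed by 2.00 ± 0.16 on the log2 scale (adjusted p = 1.22e-06). Mia3, which loads procollagen into transport carriers, differed by 1.08 ± 0.09 (adjusted p = 8.75e-07) and Plod1, a lysyl hydroxylase, by 0.92 ± 0.12 (adjusted p = 4.12e-05). P3h3, a prolyl 3-hydroxylase family member, was lower, at -1.22 ± 0.23 (adjusted p = 8.29e-04). The BPA arm had 11 higher and 2 lower. Between the PGCLC arms 5 were higher and 1 lower of 23 (median 0.25 against 0.01). They included Serpinh1, the collagen chaperone HSP47 (0.57 ± 0.13, adjusted p = 0.0267), Colgalt1, a collagen galactosyltransferase (0.48 ± 0.12, adjusted p = 0.0310), and Creb3l1, a transcription factor of secretory cells (1.36 ± 0.34, adjusted p = 0.0354). Ppib, a cyclophilin of the prolyl 3-hydroxylase complex, was lower (-0.36 ± 0.07, adjusted p = 0.0147). Each of these 4 calls was lost without BPA arm replicate 1 and also without BPA arm replicate 2, as well as under 1 or more other alternatives.

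Proteinases that trim procollagen and enzymes that cross-link it gave 5 higher and 2 lower of 13 in untreated PGCLCs (median 0.25) and 5 higher and 2 lower in the BPA arm (median 0.19). Loxl2, which cross-links type IV collagen, differed by 3.24 ± 0.26 (adjusted p = 9.21e-07), Bmp1, the C-propeptidase, by 1.95 ± 0.16 (adjusted p = 1.51e-06), and the N-propeptidases Adamts14 and Adamts2 by 2.17 ± 0.21 and 1.50 ± 0.33. Between the PGCLC arms 2 of 12 were higher and 1 lower. Bmp1 was at 19.9, 16.3 and 19.7 CPM in untreated PGCLCs and 62.6, 59.0 and 44.6 CPM in the BPA arm (1.58 ± 0.16, adjusted p = 0.00135), without overlap. Pxdn, the peroxidase that forms sulfilimine bonds in type IV collagen, was higher (0.44 ± 0.12, adjusted p = 0.0438) and Pcolce2, an enhancer of Bmp1, lower (-1.07 ± 0.22, adjusted p = 0.0177). These calls, unlike that of Bmp1, were lost under 5 or more alternatives.

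Collagen receptors gave 5 higher and 1 lower of 8 in untreated PGCLCs (median 1.37 against 0.07) and 3 higher and 1 lower in the BPA arm. Itga1, whose integrin binds type IV collagen, differed by 2.06 ± 0.33 (adjusted p = 2.25e-04), the collagen receptor kinases Ddr2 and Ddr1 by 2.63 ± 0.61 (lost with limma voom) and 0.68 ± 0.17, and Mrc2, an endocytic receptor, by -0.87 ± 0.15 (adjusted p = 3.73e-04). Between the PGCLC arms Ddr1 was higher (0.90 ± 0.18, adjusted p = 0.0174, lost in 4 of 16 alternatives) and Itga1 lower (-1.01 ± 0.28, adjusted p = 0.0493, lost in 10 of 16 alternatives). Of the collagen-degrading proteinases 3 of 6 were tested. Mmp9, the gelatinase that also cuts type IV collagen, was at 5.38, 5.53 and 7.80 CPM in untreated EpiLCs, 26.3, 19.8 and 20.0 CPM in untreated PGCLCs and 11.1, 9.88 and 9.08 CPM in the BPA arm of the PGCLCs. Its log2 difference was 1.83 ± 0.18 with stage (adjusted p = 5.38e-06) and -1.12 ± 0.16 between the PGCLC arms (adjusted p = 0.00563). Mmp14 was higher with stage (0.46 ± 0.14, adjusted p = 0.0148), a call lost without untreated EpiLC replicate 3. In EpiLCs none of the 22, 12, 6 and 3 tested genes of the 4 lists was called with BPA by edgeR.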

How the data were processed

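Per the submitters' processing notes, the reads were handled with bcl2fastq 2.19.1.403, FastQC, STAR and HTSeq on mm10; other versions and the strand setting of counting are not given in the sources used here, although the kit was strand-specific per the labels' protocols. The authors deposited raw counts per gene for each library, listing genes with at least 10 counts, and a CPM table per stage. Deposited CPM values were compared with the counts where both were above 0. All of those (100%) equalled the count divided by 1 constant per library (relative tolerance 0.001). CPM values of genes unlisted in a library were not compared. Reads assigned to no feature (4.42% to 10.7%) or to several (4.56% to 6.07%) were left out.

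Here, genes were linked by Ensembl ID to GENCODE M21, with 21695 of 21728 found, and unlisted genes entered as 0. The main test was edgeR 4.0.16 (R 4.3.3; TMM, filterByExpr, quasi-likelihood), fitted over all genes with Benjamini-Hochberg adjustment and a threshold of 0.05, on 6 libraries for a BPA effect and on 12 for stage and interaction. Alternatives were DESeq2 1.42.0, limma 3.58.1 (voom, and trend on log2 of deposited CPM + 1), other scalings and filters, 9 counts for unlisted genes, a replicate block and each library left out. The tests were also run on simulated counts with no outlying libraries and, apart from a set of changed genes, no differences between groups. No result here rests on that run. Lengths are those of the longest APPRIS principal transcript. Members with a group mean of at least 5 CPM or a call are given in each library; of each pathway list up to 4 called genes with the smallest p are named, and marker genes only beside a result. The members and lists were chosen with earlier results of these data known.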

Additional observations from a re-analysis of the deposited data

Results flagged for a closer look

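Neither of the results flagged here is a collagen chain. Bmp1, the procollagen C-proteinase, had a larger BPA difference in PGCLCs than in EpiLCs: the interaction was 1.46 ± 0.23 on the log2 scale (adjusted p = 0.0100, edgeR over 17608 genes), from 5.25, 4.98 and 4.11 CPM untreated to 4.72, 5.27 and 5.54 CPM exposed in EpiLCs and from 19.9, 16.3 and 19.7 to 62.6, 59.0 and 44.6 CPM in PGCLCs. The call was lost in 1 of 21 alternatives, limma voom. Mmp9, a gelatinase, had an interaction of -1.17 ± 0.25 (adjusted p = 0.0479), with 5.38, 5.53 and 7.80 against 6.62, 6.09 and 6.31 CPM in EpiLCs and 26.3, 19.8 and 20.0 against 11.1, 9.88 and 9.08 CPM in PGCLCs, and its call was lost in 13 of 21 alternatives.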

How the results depend on the processing

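The counts of collagen genes called with stage stayed within 1.5 times their main value of 22 under every alternative run, from 20 to 26 in the untreated arm and from 18 to 25 in the BPA arm; limma voom called 15 higher and 8 lower in the untreated arm. The EpiLC count was 0 throughout. The PGCLC BPA count of 3 became 5 with no filter, 5 with a filter of 1 CPM in at least 3 libraries, 5 with DESeq2 and 5 with unlisted genes as 9 counts, each including the 3, and 0 to 6 with 1 library left out. With limma voom it was 2, of which 1 (Col4a2) was among the 3. Over all genes the main PGCLC fit called 2321. No filter, the 1 CPM filter, DESeq2 and 9 counts called 2506, 2552, 3462 and 2685. Limma voom called 2155, and fits with 1 library left out 668 to 3206. The interaction count of 0 became 1 with library size alone, 1 with no filter, 2 with DESeq2 and 7 without both untreated EpiLC replicate 3 and BPA arm PGCLC replicate 3, and was 0 to 4 with 1 library left out. Over all genes the interaction count was 232 in the main fit. It was 259 with library size alone, 278 with no filter, 897 with DESeq2 and 2088 without both of those libraries. With 1 library left out it ran from 83 to 767. No called value changed sign. The cause of these changes was not tested.

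Replicates share only a number, which in untreated EpiLC replicate 3 differs between the title and the lane names, so the same-number correlations and the block in EpiLCs rest on the title. Correlations of deviations between same-numbered libraries were 0.0851, 0.138 and 0.247 in EpiLCs and 0.0185, -0.0192 and -0.0509 in PGCLCs. A replicate block gave 0 calls in EpiLCs, 3 in PGCLCs, 21 and 21 with stage and 0 for the interaction. Genes under 9 counts cannot be told from 0, which limits the low chains, above all in EpiLCs.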
